A study of Mus musculus with 14 samples.

Results

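Sin3A and Sin3B peaks on mouse chromosome 15 were described by gene. The members were all intervals whose chromosome name was chromosome 15 in the 4 distinct peak lists of the study, which gave 517 of 7606 peaks. The chromosome name chose them, so their number and position are a description. The Sin3A myotube list held 59 of its 759 peaks on chromosome 15, the Sin3A myoblast list 76 of 691, the Sin3B myotube list 222 of 3769 and the Sin3B myoblast list 160 of 2387.

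Chromatin immunoprecipitation and sequencing had been done in C2C12 cells, a mouse muscle line of C3H background. Myotubes came from confluent cells held in 2% horse serum and freed of undifferentiated cells with diluted trypsin, and myoblasts had grown in 10% fetal bovine serum. The labels list 2 Sin3A samples of myotubes, 2 of myoblasts, 5 Sin3B samples of myotubes and 2 of myoblasts, with 3 input samples that were not analysed here. The files of each group were identical, so each group is 1 list, n is 1, and replicate spread could not be measured. The labels name no genetic change, and 1 antibody catalogue number stands in the labels for both proteins. The Sin3A myotube samples carry 1 antibody lot, the Sin3A myoblast samples that lot and another, and all Sin3B samples a lot of their own. Peaks had no height or score, so depth is unknown and the width of a peak in bp is its only measured value. On chromosome 15 the widths ran from 108 to 1086 bp in the Sin3A myotube list (median 486), from 77 to 1053 bp in the Sin3A myoblast list (419), from 181 to 2000 bp in the Sin3B myotube list (587) and from 176 to 2063 bp in the Sin3B myoblast list (543.5). A list pools the cells of a culture, so weaker binding and binding in fewer cells cannot be told apart. A site that a list does not hold may have fallen under the authors' threshold, which no source used here gives.

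Sin3A and Sin3B are paralogous scaffolds without DNA-binding activity of their own. They carry histone deacetylases and other subunits to chromatin through sequence-specific repressors, and are best known for silencing cell cycle genes in cells that leave the cycle. Both are also found at promoters of active genes. In skeletal muscle, differentiation couples the exit from the cell cycle to the start of muscle genes.

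To name genes, the files' positions had to be brought onto the RefSeq genes of GRCm38.p6. Within each block of 10 Mb, the shift of up to 8 Mb in either direction that put most peak centres within 1 kb of a gene start was added. A block was named where at least 50% of its peaks then lay at a start and where protein-coding starts alone gave the same shift to within 1 kb, a condition added after the data were seen. Of 11 blocks, 9 were named, with shifts of 50 kb (0 to 10 Mb), 70 kb (10 to 20 and 30 to 40 Mb), 168 kb (40 to 50 Mb), 169 kb (50 to 60 and 100 to 110 Mb) and 170 kb (70 to 100 Mb). The lowest share among the named blocks was 70.6%, at 12 of 17 peaks from 0 to 10 Mb. The block from 20 to 30 Mb reached 36.8%, at 7 of 19 peaks. The block from 60 to 70 Mb reached 11 of 21 peaks at a shift of 7985 kb, where another shift gave 10, and protein-coding starts alone gave 169 kb. These blocks hold 40 peaks. They stayed unnamed in the counts that use the shift from all 4 lists, and where one of their peaks is described below it was placed with the 70 kb or 169 kb of the blocks around it. A gene name is therefore a placement and not a converted coordinate, and peak positions are given in the build of the files, which is not stated.

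Promoters of genes at leading regions are printed here, and no sequence under a peak was read. A gene start could lie up to 1 kb from the placed peak centre, so a printed promoter need not lie under the peak. For 6 patterns of binding, the first gene by peak width with a record in the RefSeq promoter table (GRCm38.p6) is printed from 250 bases before to 50 bases after its start, 5′ to 3′ on the gene's strand. The genes are Polr2f with peaks in all 4 lists (chr15:79141075-79141374, plus strand), Aaas in the Sin3A myotube and both Sin3B lists (chr15:102350710-102351009, minus strand), Nol12 in both myotube lists (chr15:78934683-78934982, plus strand), Senp1 in both Sin3B lists (chr15:98093520-98093819, minus strand), Brd1 in the Sin3B myotube list (chr15:88734170-88734469, minus strand) and Alg10b in the Sin3B myoblast list (chr15:90224061-90224360, plus strand). Capitals mark matches, on either strand, to the GC box GGGCGG, the CCAAT box, the E-box CACGTG, the ETS-type motif CCGGAAG, the TATA box TATAAA or the palindromic NRF1 motif.
Polr2f: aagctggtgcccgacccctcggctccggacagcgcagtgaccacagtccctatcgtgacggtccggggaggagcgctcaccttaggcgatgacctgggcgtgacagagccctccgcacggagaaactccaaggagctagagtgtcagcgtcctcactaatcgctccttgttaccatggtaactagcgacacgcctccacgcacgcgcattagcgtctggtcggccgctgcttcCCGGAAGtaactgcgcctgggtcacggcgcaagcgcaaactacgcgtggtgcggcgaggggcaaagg
Aaas: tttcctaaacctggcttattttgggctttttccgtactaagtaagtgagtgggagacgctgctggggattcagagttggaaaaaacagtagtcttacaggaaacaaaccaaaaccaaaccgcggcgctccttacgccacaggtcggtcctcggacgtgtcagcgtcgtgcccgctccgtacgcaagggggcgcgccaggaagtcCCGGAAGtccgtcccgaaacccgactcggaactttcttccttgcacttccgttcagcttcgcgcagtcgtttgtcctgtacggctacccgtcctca
Nol12: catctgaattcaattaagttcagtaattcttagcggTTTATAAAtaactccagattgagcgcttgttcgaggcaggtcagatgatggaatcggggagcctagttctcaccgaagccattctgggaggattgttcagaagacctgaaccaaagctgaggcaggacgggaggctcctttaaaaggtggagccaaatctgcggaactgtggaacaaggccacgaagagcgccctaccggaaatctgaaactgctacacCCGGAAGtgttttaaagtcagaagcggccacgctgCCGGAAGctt
Senp1: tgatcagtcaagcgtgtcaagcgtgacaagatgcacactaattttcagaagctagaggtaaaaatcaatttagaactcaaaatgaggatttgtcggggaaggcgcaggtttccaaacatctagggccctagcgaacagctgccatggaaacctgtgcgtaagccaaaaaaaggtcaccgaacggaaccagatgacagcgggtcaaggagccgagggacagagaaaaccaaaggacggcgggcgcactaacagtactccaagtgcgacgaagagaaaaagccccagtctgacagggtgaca
Brd1: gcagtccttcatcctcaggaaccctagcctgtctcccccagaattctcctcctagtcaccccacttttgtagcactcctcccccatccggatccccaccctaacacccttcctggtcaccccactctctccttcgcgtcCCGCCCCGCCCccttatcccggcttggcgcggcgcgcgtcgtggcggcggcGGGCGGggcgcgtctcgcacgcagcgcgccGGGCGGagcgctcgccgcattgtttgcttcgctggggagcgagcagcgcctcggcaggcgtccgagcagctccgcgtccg
Alg10b: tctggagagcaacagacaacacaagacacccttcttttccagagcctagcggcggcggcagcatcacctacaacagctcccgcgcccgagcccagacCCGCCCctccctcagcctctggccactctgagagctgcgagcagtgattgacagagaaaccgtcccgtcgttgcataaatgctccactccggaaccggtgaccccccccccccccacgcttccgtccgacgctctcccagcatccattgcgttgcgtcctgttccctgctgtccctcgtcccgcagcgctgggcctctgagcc
CCGGAAG stood once in the promoters of Polr2f and Aaas and at 2 places in that of Nol12, which also held 2 overlapping matches to TATAAA. The Brd1 promoter held 4 matches to the GC box GGGCGG, a pair of them overlapping, and the Alg10b promoter held 1. The Senp1 promoter printed here held none of the 6 motifs, and its GC content was 50%, against 70% for Brd1. The other Senp1 record of the table (chr15:98093326-98093625, minus strand) held CCGGAAG once, at a GC content of 63.3%.

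Over the named blocks, 503 promoter records of protein-coding genes could be set beside the peaks. Between Sema5a (from chr15:32244563) and Mb (from chr15:77022678) the table held almost no records. Genes with peaks in that stretch, such as Atad2, Hsf1, Klf10 and Rpl30, were therefore left out. The shares below describe mainly the chromosome outside it. Of these, 129 had a peak of any list within 1 kb and 374 had none. The median GC content was 62.7% with a peak and 58% without one, and the median number of CpG dinucleotides in the 300 bases was 26 with a peak and 10 without one. CCGGAAG, counted on both strands, was in 32.6% of the promoters with a peak, in 5.88% of those without one and in 8.86% of all 32851 promoters of the table. GGGCGG was in 73.6% with a peak, 44.4% without one and 35.7% of the table. TATAAA was in 3.10% with a peak, 12.8% without one and 13.6% of the table. The E-box CANNTG, which includes CACGTG and is the core read by MyoD-family factors, was in 52.7% with a peak, 71.7% without one and 72.3% of the table. By list, CCGGAAG was in 42.9% of 35 promoters with a Sin3A myotube peak, 4 of 8 with a Sin3A myoblast peak, 35.2% of 108 with a Sin3B myotube peak and 35.3% of 68 with a Sin3B myoblast peak. CCAAT differed little, at 38.8% with a peak and 37.2% without one. These shares are descriptions, and promoters that share CpG-rich sequence are not independent.

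Merging overlapping peaks of the 4 lists gave 315 regions on chromosome 15. Sin3B in myotubes alone held 92 of them (29.2%), where 38% of all 5137 regions of the genome had that pattern. Both Sin3B lists held 54 (17.1%, against 19.5% of all regions) and Sin3B in myoblasts alone held 49 (15.6%, against 17.1%). Sin3A in myoblasts alone held 41 (13.0%, against 6.72%). The Sin3A myotube list together with both Sin3B lists held 23 (7.30%, against 4.28%), and the Sin3A and Sin3B myotube lists held 15 (4.76%, against 5.31%). Sin3A in myoblasts joined both Sin3B lists at 12 regions (3.81%, against 1.97%), and all 4 lists met at 9 (2.86%, against 1.64%). Sin3A in myotubes alone held 6 regions (1.90%, against 2.16%). Both Sin3A lists met Sin3B in myotubes alone at 5 regions (1.59%, against 0.662%) and met each other without Sin3B at 1 (0.317%, against 0.175%). Sin3A in myoblasts met the Sin3B myoblast list alone at 4 (1.27%, against 0.857%) and the Sin3B myotube list alone at 4 (1.27%, against 1.25%). The remaining patterns, both Sin3A lists with Sin3B in myoblasts (0.0389% of all regions) and Sin3A in myotubes with Sin3B in myoblasts (0.331%), had 0 regions on chromosome 15. Regions with 3 lists made up 12.7% on chromosome 15, against 6.57% on the other chromosomes, and regions with 1 list 59.7%, against 64.3%.

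**Figure D1:**
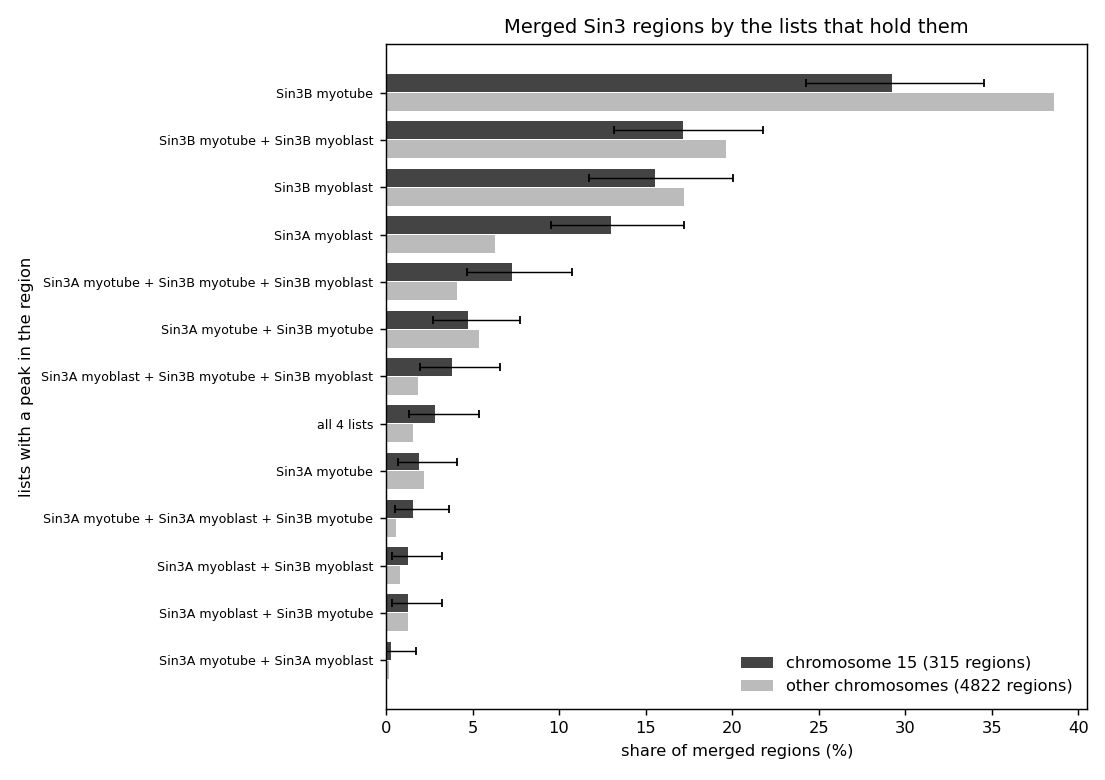
Bars give the share of merged regions (%) that have each combination of lists, dark for the 315 regions of chromosome 15 with 95% exact binomial intervals and light for the 4822 regions of other chromosomes. Sin3A in myoblasts alone stands at 13.0% on chromosome 15, and Sin3B in myotubes alone at 29.2%.

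In all 8 comparisons, Sin3B peaks on chromosome 15 met other lists more often, or stood alone less often, than Sin3B peaks elsewhere. The difference passed in 6 of them. Of 222 Sin3B myotube peaks on chromosome 15, 55 (24.8%) overlapped a Sin3A myotube peak by at least 1 bp, against 15.9% of those on other chromosomes (two-sided exact test of Fisher, adjusted p = 0.0081 over 16 tests). They overlapped Sin3A myoblast peaks in 14.0% of cases, against 7.19% on other chromosomes (Fisher's exact test, adjusted p = 0.0081). They overlapped Sin3B myoblast peaks in 46.4%, against 37.5% (Fisher's exact test, adjusted p = 0.0271), and no other list in 41.4%, against 52.5% (adjusted p = 0.0095). Of 160 Sin3B myoblast peaks, 21.3% overlapped a Sin3A myotube peak, against 12.7% elsewhere (adjusted p = 0.0143), and 16.3% a Sin3A myoblast peak, against 9.25% (Fisher's exact test, adjusted p = 0.0253). The other 10 comparisons did not pass, among them Sin3A myoblast peaks at Sin3B myoblast peaks, at 32.9% on chromosome 15 and 33.2% elsewhere (Fisher's exact test, adjusted p = 1). Peaks were the units, so the tests compare these lists and not cultures, and neighbouring peaks are not independent. The share with no other list rests on the same overlaps, so the 8 comparisons are not independent either. Chromosome 15 also held a larger share of each Sin3A list than of either Sin3B list. Its Sin3B peaks had median widths of 587 bp in myotubes and 543.5 bp in myoblasts, against 542 and 494 bp on other chromosomes. Whether peak numbers and widths account for the higher overlap was not tested. Of the 6 calls, 3 were lost with only the wider peaks of each list and 5 with the Sin3B lists cut to the length of the Sin3A lists.

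**Figure D2:**
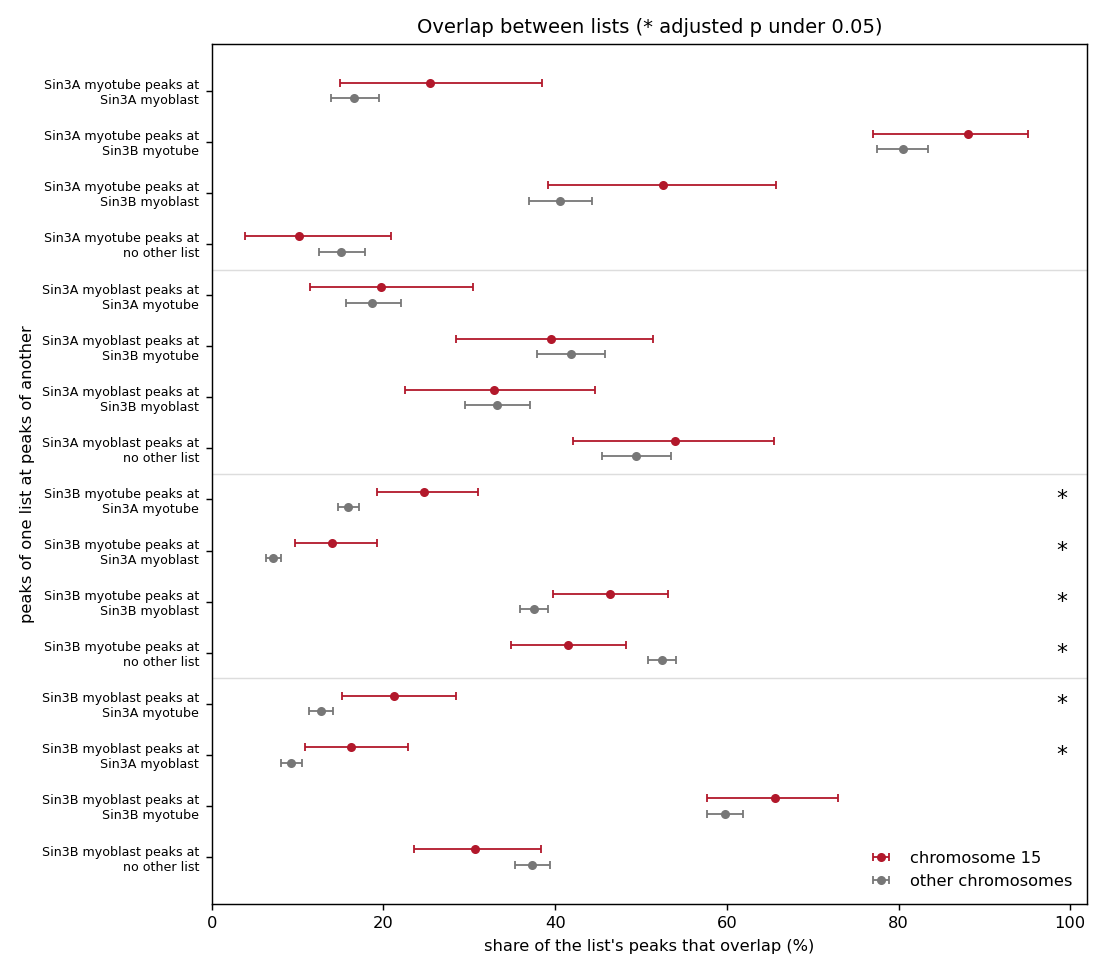
Points give the share of the peaks of 1 list (%) that overlap a peak of another list, or no other list, on chromosome 15 (red) and on other chromosomes (grey), with 95% exact binomial intervals. Asterisks mark the 6 comparisons with an adjusted p under 0.05, all of them for Sin3B peaks.

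Within chromosome 15, the Sin3A lists of the stages differed in how often they met Sin3B. In myotubes 52 of 59 Sin3A peaks (88.1%) overlapped a Sin3B myotube peak, while in myoblasts 25 of 76 (32.9%) overlapped a Sin3B myoblast peak (two-sided exact test of Fisher, adjusted p = 7.78e-11 over 4 tests). On other chromosomes the shares were 80.6% in myotubes and 33.2% in myoblasts, and chromosome 15 did not differ from them at the threshold. Seen from Sin3B, 24.8% of the myotube peaks and 16.3% of the myoblast peaks met Sin3A of the same stage, which did not pass (Fisher's exact test, adjusted p = 0.0566). The same direction over all chromosomes was known when the peaks were chosen, so these tests add no independent support. Where peaks overlapped, their centres lay close together, with a median distance of 110 bp between Sin3A and Sin3B in myotubes and 175 bp in myoblasts.

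The Sin3A myoblast list also stood apart in where its peaks lay. In the named blocks 378 of 477 peaks (79.2%) lay within 1 kb of a gene start, a share that the shift was chosen to raise. To keep Sin3A out of that choice, the shift was found again from the Sin3B lists alone, which named blocks with 58 Sin3A myotube peaks and 67 Sin3A myoblast peaks. Of the Sin3A myotube peaks 48 of 58 (82.8%, 95% exact interval 70.6 to 91.4) then lay at a start, and of the Sin3A myoblast peaks 30 of 67 (44.8%, 32.6 to 57.4). The difference of 38.0 percentage points passed (Fisher's exact test, two-sided, p = 1.56e-05, not adjusted, a test added after the data were seen). Peaks were its units, so the test compares lists and not cultures, and neighbouring peaks are not independent. The shift was chosen to put Sin3B peaks at starts, and 52 of 59 Sin3A myotube peaks overlapped Sin3B of the same stage. Of the Sin3A myoblast peaks 25 of 76 did so. The test is therefore not independent of the shift or of the overlap difference above. The Sin3B lists alone also named the block from 20 to 30 Mb, where another shift put as many of their peaks (5 of 9) at a start, and which held 8 of the 67 Sin3A myoblast peaks. Without it, 47 of 56 Sin3A myotube peaks (83.9%) and 30 of 59 Sin3A myoblast peaks (50.8%) were at a start, 33.1 points apart (two-sided exact p = 0.00017). The Sin3B lists that set the shift stood at 84.4% in myotubes and 79.7% in myoblasts.

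Among Sin3A myoblast peaks in the named blocks, those with another list were at starts in 24 of 30 cases and those alone in 6 of 29. Of the 29 alone, 8 lay inside a protein-coding gene and 15 between such genes. Genes of other kinds were not searched for this. Over all blocks, 20 of the 41 Sin3A myoblast peaks without another list lay more than 100 kb from the nearest peak of any other list, with a median gap of 83127 bp. The median gap was 43904 bp for Sin3B myotube peaks alone, 18832 bp for Sin3B myoblast peaks alone and 31827 bp for the 6 Sin3A myotube peaks alone. In that order, 23 of 92, 9 of 49 and 2 of 6 lay more than 100 kb away. Each gap was measured to the peaks of the other lists, whose number differs by list, so the gaps are not strictly alike. The unnamed blocks held 17 of the 76 Sin3A myoblast peaks and 23 of the other 441 peaks. The 6 regions at starts were at Ttll12, a tubulin ligase-like gene (520 bp), Wdyhv1, an N-terminal glutamine amidase (434 bp), Them6 (389 bp), Mfsd3 (257 bp), the olfactory receptor gene Olfr281 (515 bp) and Gm35248 (641 bp). The Gm35248 peak (chr15:38229042-38229682) lay 141 bp from the peaks at Klf10.

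**Figure D3:**
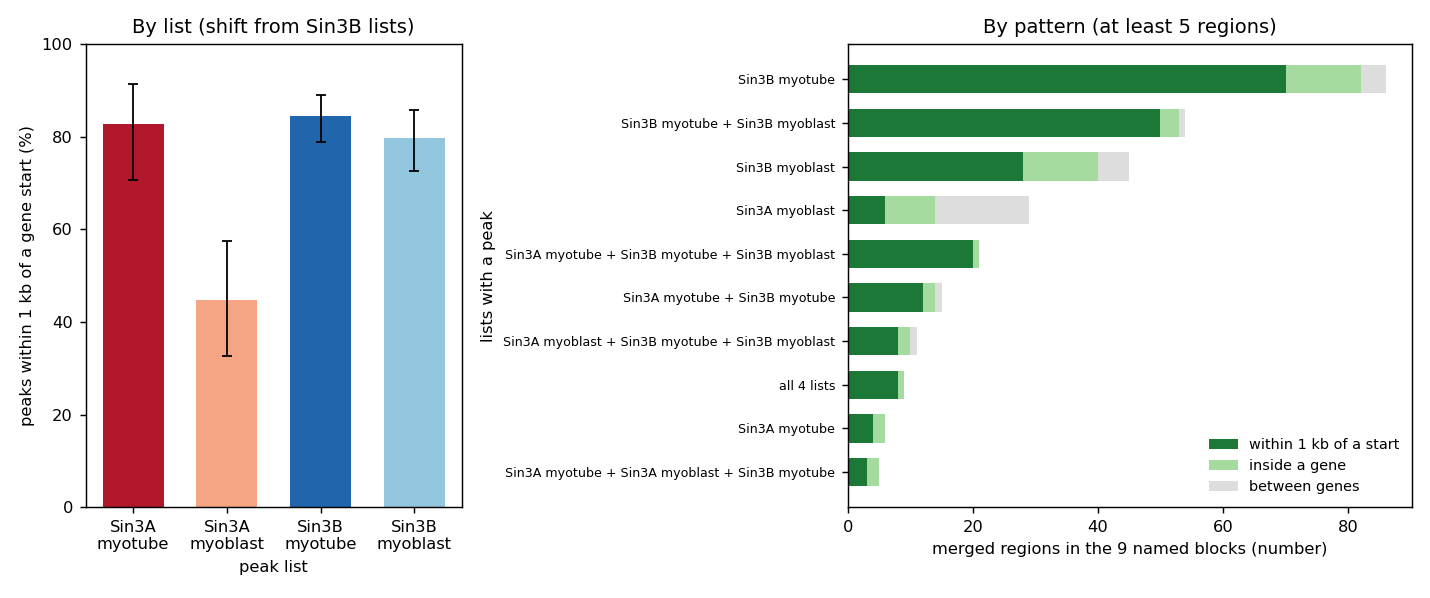
Left, share of peaks within 1 kb of a gene start (%) in each list, with the shift taken from the Sin3B lists and 95% exact binomial intervals. Right, number of merged regions in the 9 named blocks at a start, inside a protein-coding gene or between such genes, by pattern. The Sin3A myoblast list stands at 44.8% and its regions without another list are mostly away from starts.

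Over the named blocks, 219 of 735 protein-coding genes (29.8%) had a peak of any list within 1 kb of a start. Sin3A myotube peaks were at 57 of them (7.76%), Sin3A myoblast peaks at 32 (4.35%), Sin3B myotube peaks at 187 (25.4%) and Sin3B myoblast peaks at 128 (17.4%). At 500 bp from a start fewer blocks could be named, and 85 of 450 genes had a peak. Of the 219 genes with a peak, 80 (36.5%) had it in myotube lists alone, 29 (13.2%) in myoblast lists alone and 110 at both stages. Starts that lie back to back shared peaks. A second coding start stood within 1 kb for 73 of the 219 genes with a peak and for 47 of the 516 without one. Gene ends were used as starts where the table had no strand for a gene, so some names, such as Tonsl beside Vps28, can stand for the end of a gene. Gene lists are described beside these shares and were not tested.

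All 4 lists met at the starts of 8 regions. At Atad2, which encodes a bromodomain ATPase of replicating chromatin, the widest peak was 1086 bp in the Sin3A myotube list, 606 bp in the Sin3A myoblast list, 1127 bp in the Sin3B myotube list and 802 bp in the Sin3B myoblast list (chr15:57965345-57967288). It was the widest Sin3A myotube peak of the chromosome. At Hsf1, the heat shock transcription factor, which shares its start region with the ribosome biogenesis gene Bop1, the widths were 954 bp in the Sin3A myotube list, 520 bp in the Sin3A myoblast list, 1301 bp in the Sin3B myotube list and 781 bp in the Sin3B myoblast list (chr15:76307159-76308459). At Polr2f, a subunit common to the nuclear RNA polymerases, they were 725, 217, 905 and 279 bp in the same order of lists (chr15:78971410-78972320). In each of these 3 genes, and in the remaining 5 except Ago2, the widest Sin3B peak of myotubes or myoblasts was wider than both Sin3A peaks, and the median Sin3B peak was also wider than the median Sin3A peak. The others were Azin1, an activator of polyamine synthesis, Eif3e and Eef1d, factors of translation initiation and elongation, Gtse1, a regulator of mitotic microtubules, and Ago2, the Argonaute of RNA silencing. Ago2 had a peak of 775 bp in the Sin3A myotube list and 355 bp in the Sin3B myotube list. A region inside Phf21b, a PHD finger gene, also had all 4 lists, with 625 bp in the Sin3A myotube list, 530 bp in the Sin3A myoblast list, 324 bp in the Sin3B myotube list and 454 bp in the Sin3B myoblast list (chr15:84659586-84660271).

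The 2 protein-coding genes whose start had the Sin3A and Sin3B myoblast lists and no myotube peak in the named blocks were Klf10 and Jrk. Klf10, a TGF-beta-induced zinc finger repressor, had the widest Sin3A myoblast peak of the chromosome at 1053 bp, with a Sin3B myoblast peak of 619 bp (chr15:38229824-38230941). Jrk, a transposase-derived DNA-binding gene, had a Sin3A peak of 388 bp and a Sin3B peak of 488 bp in myoblasts. In the unnamed block from 60 to 70 Mb, the widest Sin3B myoblast peak of the chromosome, 2063 bp, overlapped a Sin3A myoblast peak of 423 bp (chr15:61816899-61819177). With the 169 kb of the neighbouring blocks it lay at Myc, the growth-promoting transcription factor that falls when muscle cells differentiate. Neither myotube list had a peak there, and a second Sin3A and Sin3B myoblast region followed at chr15:61911071-61911664, between protein-coding genes.

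Of 16 genes in the translation list, all had a peak, where 29.8% of all protein-coding genes had one. The list was chosen with earlier results of these data known and also holds the chaperonin gene Cct5 and the stress factor Atf4. Peaks were at 8 in the Sin3A myotube list (50%, against 7.76% of all protein-coding genes) and 3 in the Sin3A myoblast list (18.8%, against 4.35%). For Sin3B they were at 15 in the myotube list (93.8%, against 25.4%) and 12 in the myoblast list (75%, against 17.4%). Rpl30, a protein of the large ribosomal subunit, had 942 bp in the Sin3A myoblast list, 1195 bp in the Sin3B myotube list and 964 bp in the Sin3B myoblast list, and no Sin3A myotube peak. Rpl8 had 281 bp in the Sin3A myotube list, with Sin3B peaks of 877 bp in myotubes and 506 bp in myoblasts. Tars, the threonyl-tRNA synthetase, had Sin3B peaks alone, of 1120 bp in myotubes and 556 bp in myoblasts. Pabpc1, the poly(A)-binding protein, was the one member without Sin3B, with a Sin3A myotube peak of 353 bp. Atf4, the transcription factor of the integrated stress response, had 346 bp in the Sin3A myotube list and Sin3B peaks of 501 bp in myotubes and 373 bp in myoblasts.

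Of 22 genes of the transcription machinery and RNA processing, 18 (81.8%) had a peak, against 29.8% of all protein-coding genes. The Sin3A myotube list had peaks at 6 (27.3%, against 7.76%) and the Sin3A myoblast list at 3 (13.6%, against 4.35%). The Sin3B myotube list had them at 18 (81.8%, against 25.4%) and the Sin3B myoblast list at 10 (45.5%, against 17.4%). Larp4, an RNA-binding protein of the La family, had a peak of 1003 bp in the Sin3A myotube list, beside 556 bp in the Sin3B myotube list. Ccnt1, the cyclin of the elongation factor P-TEFb, had 438 bp in the Sin3A myotube list, 953 bp in the Sin3B myotube list and 1125 bp in the Sin3B myoblast list. Maf1, the repressor of RNA polymerase III, had 416 bp in the Sin3A myoblast list, 987 bp in the Sin3B myotube list and 748 bp in the Sin3B myoblast list, in a region it shares with Sharpin. Members with peaks in myotube lists alone included Sub1, Pcbp2, Hnrnpa1, Ddx17, Larp4, Scaf11 and Zfr, where 80 of all 219 genes with a peak (36.5%) were so.

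Of 18 genes of chromatin, 10 (55.6%) had a peak, against 29.8% of all protein-coding genes. None of the 18 had one within 1 kb of a start in the Sin3A myoblast list. For so few genes that is close to the 4.35% of all protein-coding genes. Phf21b, also a member, had a Sin3A myoblast peak inside the gene. Kmt2d, a histone lysine methyltransferase, had Sin3B peaks of 1951 bp in myotubes and 358 bp in myoblasts. The histone deacetylase family gene Hdac10 had 486 bp in the Sin3A myotube list, 832 bp in the Sin3B myotube list and 1077 bp in the Sin3B myoblast list. The promoter table has no record for Hdac10, so either gene end counted, and the region is shared with Tubgcp6, a tubulin complex gene. Of the 10, 5 were in myotube lists alone, where 80 of all 219 genes with a peak were so, namely the acetyltransferase Ep300 (366 bp, Sin3B), the acetyltransferase scaffold Brd1 (894 bp, Sin3B), the SWI/SNF subunit Smarcd1 (620 bp, Sin3B), Chrac1 (443 bp, Sin3B) and Cbx5, the heterochromatin protein, with 279 bp for Sin3A and 592 bp for Sin3B. Phf5a, a splicing and chromatin factor, had 355 bp in the Sin3A myotube list, 1932 bp in the Sin3B myotube list and 857 bp in the Sin3B myoblast list.

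Of 20 genes of the cell cycle and genome upkeep, 13 (65%) had a peak, against 29.8% of all protein-coding genes. The Sin3A myotube list had peaks at 6 (30%, against 7.76%) and the Sin3A myoblast list at 4 (20%, against 4.35%). The Sin3B myotube list had them at 12 (60%, against 25.4%) and the Sin3B myoblast list at 8 (40%, against 17.4%). Of all 219 genes with a peak, 80 (36.5%) had it in myotube lists alone, and the 13 members were close to that share. Peaks of myotubes alone were at Espl1, the separase that frees sister chromatids (417 bp for Sin3A, 617 bp for Sin3B), Racgap1 of the cytokinetic spindle (569 bp, Sin3B), Rad1 of the checkpoint clamp (785 bp, Sin3B), Rrm2b (413 bp, Sin3B) and Rbx1 (276 bp, Sin3B). Peaks of both stages were at Troap, a spindle protein, with 417 bp in the Sin3A myotube list, 813 bp in the Sin3B myotube list and 1110 bp in the Sin3B myoblast list. Recql4, a helicase of replication, had 458 bp in the Sin3A myotube list, 1366 bp in the Sin3B myotube list and 608 bp in the Sin3B myoblast list. Skp2, Rad21, Cenpm, Ncaph2, Smc1b, Xrcc6 and Nipbl had none within 1 kb of a start, and a Sin3A myotube peak of 352 bp lay inside Nipbl, the cohesin loader.

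Mitochondrial and lipid genes had a peak at 13 of 19 members (68.4%), against 29.8% of all protein-coding genes. The Sin3A myotube list had peaks at 2 (10.5%, against 7.76%) and the Sin3A myoblast list at 1 (5.26%, against 4.35%). The Sin3B myotube list had them at 9 (47.4%) and the Sin3B myoblast list at 12 (63.2%). This was the one gene list with more members in the Sin3B myoblast list than in the Sin3B myotube list. All protein-coding genes stood at 17.4% in myoblasts and 25.4% in myotubes. Of all 219 genes with a peak, 29 (13.2%) had it in myoblast lists alone. Sin3B in myoblasts alone was at Sco2, a copper chaperone of cytochrome oxidase (630 bp), Cox14, an assembly factor of that oxidase (394 bp), Samm50 of the outer membrane sorting machinery (498 bp) and Dgat1, which makes triacylglycerol (681 bp). The sterol genes Srebf2 and Sqle had both Sin3B lists, with 608 and 726 bp in myotubes and 416 and 648 bp in myoblasts.

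**Figure D4:**
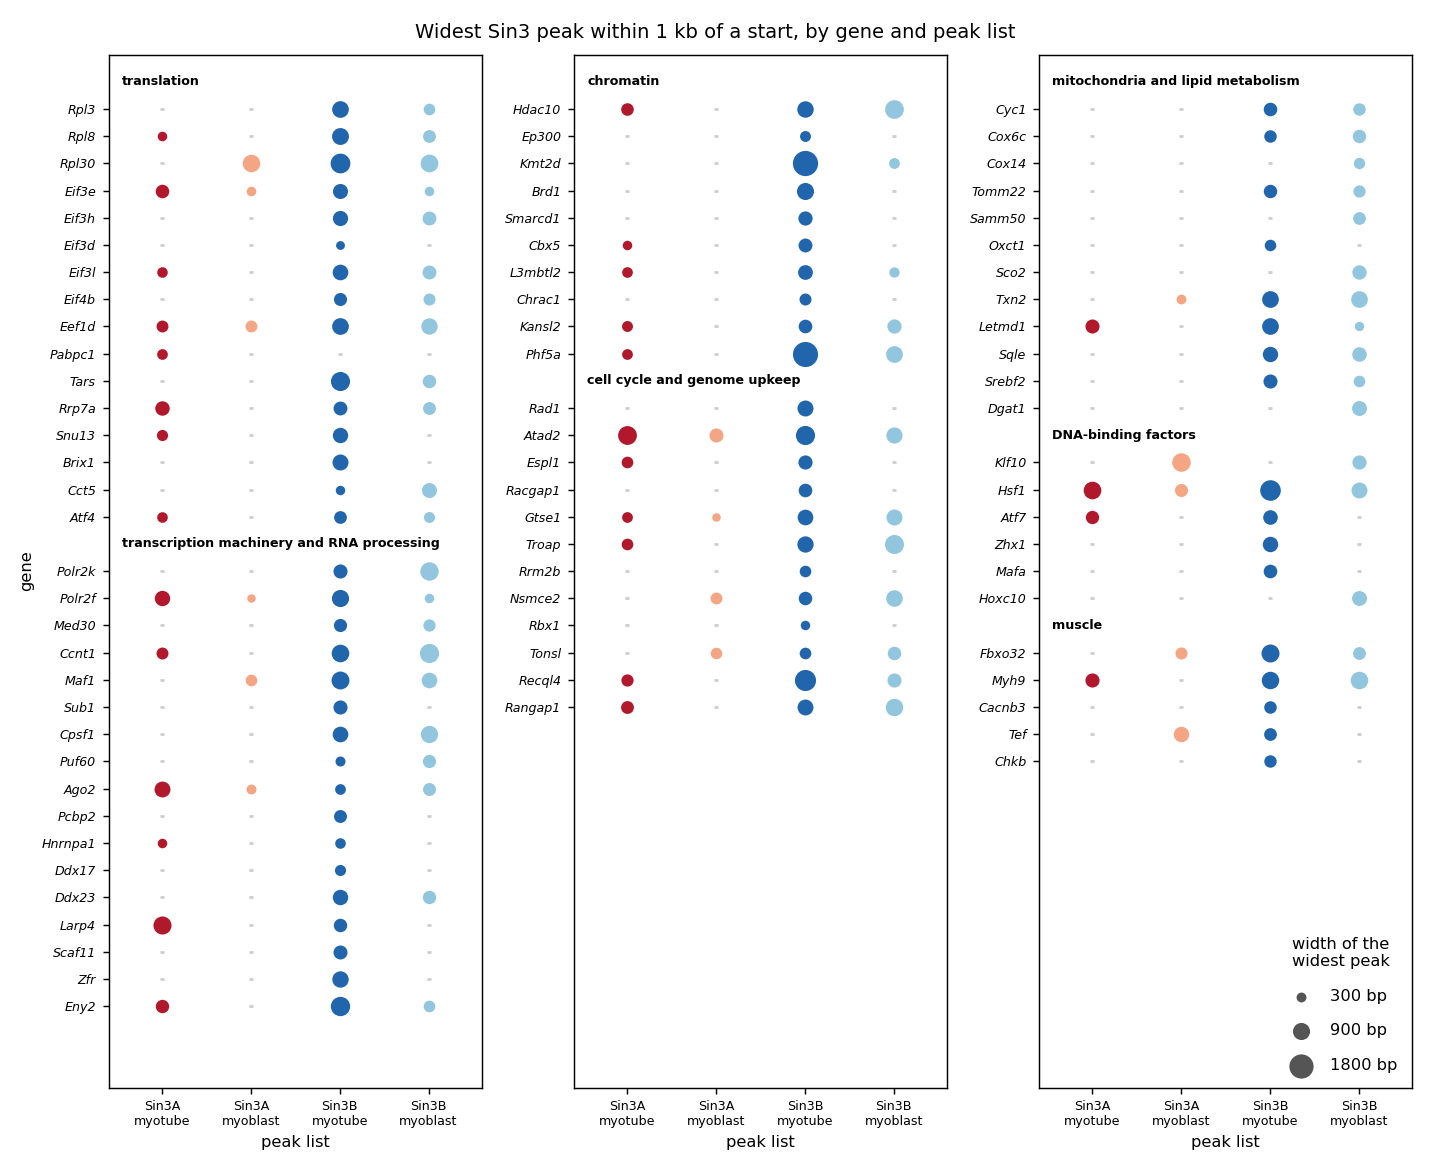
Each dot is the widest peak within 1 kb of a start of the gene in each list, with its area in proportion to the width in bp, and a dash means no peak. Translation genes have Sin3B myotube dots at 15 of 16 members, against 25.4% of all protein-coding genes. Chromatin genes have no dot in the Sin3A myoblast column, where all protein-coding genes stood at 4.35%.

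Of 19 muscle genes, 5 (26.3%) had a peak within 1 kb of a start, against 29.8% of all protein-coding genes. Within 2 kb, 10 of 18 muscle genes had one, against 229 of 672 protein-coding genes. Fbxo32, the muscle ubiquitin ligase of atrophy, had 446 bp in the Sin3A myoblast list, 996 bp in the Sin3B myotube list and 506 bp in the Sin3B myoblast list. Tef, a circadian bZIP factor, had 501 bp in the Sin3B myotube list and 732 bp in the Sin3A myoblast list. Myh9, a non-muscle myosin heavy chain, had 613 bp in the Sin3A myotube list, 936 bp in the Sin3B myotube list and 946 bp in the Sin3B myoblast list. Cacnb3, a calcium channel subunit, and Chkb, a choline kinase, had Sin3B myotube peaks of 483 and 475 bp. The 14 without a peak at a start were Pfkm, Mapk12, Cpt1b, Plec, Pvalb, Csdc2, Gpd1, Col22a1, Dab2, Parvb, Itga5, Mrtfa, Ptp4a3 and Acvr1b. Trio, a guanine nucleotide exchange factor of muscle cell fusion, lay outside the named blocks. With the shift of its neighbours a region inside it had 500 bp in the Sin3A myotube list, 1520 bp in the Sin3B myotube list and 606 bp in the Sin3B myoblast list (chr15:27953675-27955194).

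Plec, the cytolinker plectin that ties sarcomeres to intermediate filaments, had no peak within 1 kb of a start in the table but 5 regions inside the gene. Among them was the widest Sin3B myotube peak of the chromosome, of 2000 bp, which overlapped a Sin3A myoblast peak of 526 bp and Sin3B myoblast peaks of 522 and 218 bp (chr15:76034923-76036922). The next held peaks of 613 bp in the Sin3A myotube list, 322 bp in the Sin3A myoblast list and 1408 bp in the Sin3B myotube list (chr15:76028939-76030388). A further region had 555 bp in the Sin3A myotube list beside Sin3B myotube peaks of 882 and 704 bp (chr15:76058336-76060081). Other wide regions inside genes were at Mtss1, an actin and membrane adaptor, with 532 bp in the Sin3A myotube list and 1772 bp in the Sin3B myotube list (chr15:58911787-58913590), and at Ywhaz, a phosphoserine-binding adaptor, with Sin3B peaks of 968 and 878 bp in myotubes and 1002 bp in myoblasts (chr15:36721198-36723196). Rbfox2, a splicing factor of muscle differentiation, had a region of 455 bp in the Sin3A myotube list, 581 bp in the Sin3A myoblast list and 1012 bp in the Sin3B myotube list (chr15:77136524-77137535). The table gives further starts for some genes only, so whether such a region lies at an unlisted start was not tested. The regions other than the widest peak were chosen after their values were seen.

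DNA-binding factors had a peak at 6 of 21 members (28.6%), which is close to the 29.8% of all protein-coding genes. Beside Hsf1 and Klf10 they were Atf7, with 543 bp in the Sin3A myotube list and 654 bp in the Sin3B myotube list, Zhx1 (730 bp) and Mafa (573 bp) in the Sin3B myotube list, and Hoxc10 in the Sin3B myoblast list (681 bp). In the Hoxc cluster, 5 of the 7 regions were Sin3B myoblast peaks alone, at Hotair (465 bp), Hoxc11 (442 bp), Hoxc10 and at 2 positions without a start within 1 kb. Of all 315 regions on chromosome 15, 49 (15.6%) were Sin3B myoblast peaks alone, and 17.1% of all regions of the genome. The Sin3B myotube list had a peak at Hoxc13 (582 bp), and 1 region at Gm36878 held Sin3A in myoblasts (623 bp) with both Sin3B lists (553 bp in myotubes, 563 bp in myoblasts). Apart from Hoxc10 and Gm36878, the regions of the cluster were outside the rule for named regions. Neighbouring peaks of a cluster are not independent. Genes of other lineages, among them the keratins Krt5, Krt8 and Krt18, the cartilage collagen Col2a1 and the bone factor Sp7, had no peak in any list within 1 kb of a start at any of 14 members. Of the 14, Pvalb is also in the muscle list.

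**Figure D5:**
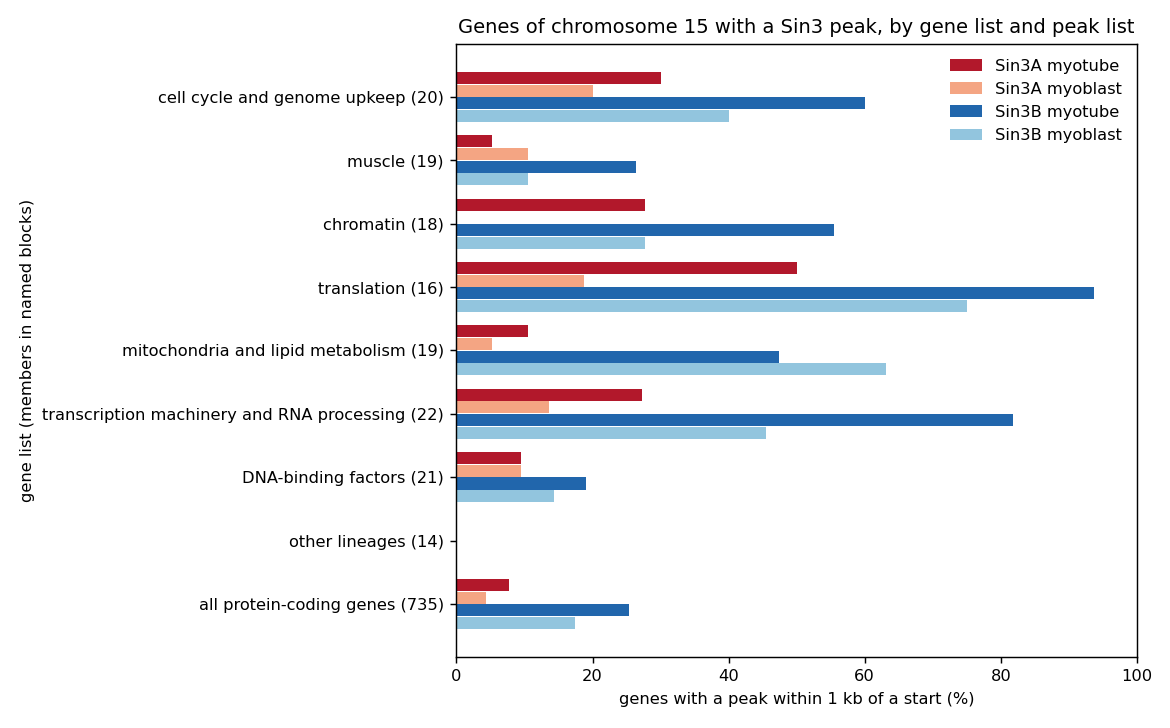
Bars give the share of the members of each gene list (%) with a peak within 1 kb of a start in each of the 4 peak lists, with the 735 protein-coding genes of the named blocks at the bottom. Translation reaches 15 of 16 members in the Sin3B myotube list, and the genes of other lineages have none.

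The remaining leading regions were chosen by width within each pattern. In both myotube lists without myoblast peaks, Nol12, a nucleolar RNA-binding protein, had 706 bp for Sin3A and 725 bp for Sin3B, and the back-to-back pair Rida and Pop1, a subunit of RNase P, had 692 and 581 bp. The small nuclear and nucleolar RNP protein gene Snu13 had 385 bp for Sin3A and 722 bp for Sin3B. With the Sin3A myotube list and both Sin3B lists, Aaas, a nuclear pore protein, had 692 bp in the Sin3A myotube list, 1025 bp in the Sin3B myotube list and 734 bp in the Sin3B myoblast list. In the same pattern stood Pacsin2, a membrane-bending protein, Hdac10, Myh9 and Rangap1, the GTPase activator of Ran. Sin3A of both stages and Sin3B of myotubes met at Dscc1, a loader of the replication clamp, with 728 bp in the Sin3A myotube list, 408 bp in the Sin3A myoblast list and 648 bp in the Sin3B myotube list, and at Rhebl1, a small GTPase, with 495, 538 and 846 bp in that order.

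Both Sin3B lists without Sin3A had their leading regions, by mean rank of width, at Senp1, a SUMO protease (1135 bp in myotubes, 1094 bp in myoblasts), Ndufb9, a subunit of respiratory complex I (1083 and 1059 bp), Mtbp, a replication initiation factor back to back with the mitochondrial ribosomal gene Mrpl13 (1191 and 949 bp), the focal adhesion kinase gene Ptk2 (980 and 1092 bp) and the tubulin gene Tuba1b (1001 and 1039 bp). For these 5 the first width is that of myotubes. Sin3B in myotubes alone was widest at a start at Gm38469 (1716 bp) and Mtdh (1158 bp), and Sin3B in myoblasts alone at Ext1, a heparan sulfate polymerase (1293 bp), and Commd5 (989 bp). The Sin3A myotube list alone had starts at Tmem184b (577 bp), the pseudokinase gene Trib1 (522 bp, with Sin3B peaks in other regions by the gene), Pabpc1 and Pycrl, an enzyme of proline synthesis (308 bp). Sin3A in myoblasts met Sin3B in myotubes at Taf2, a subunit of TFIID (595 bp for Sin3A, 445 bp for Sin3B), at Tef and at Scrt1, a zinc finger repressor (268 bp for Sin3A, 322 bp for Sin3B).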

How the data were processed

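Peaks came from chromatin immunoprecipitation of sonicated nuclei, with 18 cycles of PCR and library fragments of about 350 bp sequenced on the Illumina Genome Analyzer, per the labels' protocols. The authors deposited 11 interval files of chromosome, start and end without header or score, which hold 4 distinct lists. Neither aligner, peak caller, threshold, pooling nor build is given in any source used here. Starts were printed counting from 1. The members and the gene lists were chosen with earlier results of these data known.

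Overlap meant at least 1 bp. Shares carry 95% exact (Clopper-Pearson) intervals, which cover counting error only, since each group is 1 list and neighbouring peaks are not independent. Shares were compared by two-sided Fisher's exact tests with Benjamini-Hochberg adjustment (16 tests against other chromosomes, 4 within chromosome 15, threshold 0.05). Gene starts came from the RefSeq table of GRCm38.p6 (776 protein-coding genes on chromosome 15). The strand-aware start came from the promoter table for 422 of them, and both gene ends served for the rest. A peak took the nearest protein-coding start within 1 kb of its centre, otherwise the nearest of any kind. Named regions were the 5 widest at a start in each pattern (by mean within-list width rank), every gene list member with a peak and the widest peak of each list. Some members counted in the gene lists are not reported here by name. Shift search, overlap counts and tests were tested on simulated data. Fisher's tests ran in scipy 1.17.1, tables in pandas 2.3.3 and numpy 2.4.6, and figures in matplotlib 3.10.9, all under Python 3.11.15.

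Alternatives covered overlap by 50% of the shorter interval, peaks within 1 kb, the wider peaks of each list, Sin3B lists cut to their widest peaks at the length of the Sin3A lists, no chromosome X, other distances, blocks and starts, and shifts from the Sin3B lists.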

Additional observations from a re-analysis of the deposited data

Results flagged for a closer look

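Sin3A and Sin3B differed in how far their peaks on chromosome 15 were listed at both stages. Of the myoblast peaks, 15 of 76 Sin3A peaks (19.7%) and 105 of 160 Sin3B peaks (65.6%) overlapped a myotube peak of the same protein, which is -45.9 percentage points (Sin3A minus Sin3B, two-sided exact test of Fisher, adjusted p = 7.78e-11 over 4 tests). On other chromosomes the shares were 18.7% for Sin3A and 59.8% for Sin3B. Of the myotube peaks, 15 of 59 Sin3A peaks (25.4%) and 103 of 222 Sin3B peaks (46.4%) overlapped a myoblast peak of the same protein, which is -21 points (Fisher's exact test, adjusted p = 0.00609), with 16.6% for Sin3A and 37.5% for Sin3B on other chromosomes. Both results are given here because the overlap shares of the Sin3A and Sin3B lists differed in a test over peaks. With 1 list per group the test compares lists and shows no effect of stage in cultures. With the Sin3B lists cut to their widest peaks, the difference was -24.5 points for myoblast peaks (exact p = 0.00364) and -17.4 for myotube peaks, which no longer passed (exact p = 0.0566). The Sin3A myoblast samples carry an antibody lot that the Sin3A myotube samples lack, and the Sin3B lists share 1 lot, so lot and stage cannot be told apart for Sin3A. The lists also differ in length.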

How the results depend on the processing

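No difference that passed changed sign under any alternative run. Leaving out chromosome X, other blocks (5 Mb, or 10 Mb from 5 Mb), shifts from the Sin3B lists, protein-coding starts only and merging regions within 1 kb left every result they touched on its side of the threshold, or its count within 1.5 times. No paired analysis was possible because the files of a group are identical and each group is 1 list. For the same reason no replicate could be left out.

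Some differences that did not pass changed sign and still did not pass, all for Sin3A myoblast peaks on chromosome 15 minus other chromosomes in percentage points. At Sin3A myotube peaks the 1.04 became -0.588 with peaks within 1 kb and -4.39 with the wider peaks, and at Sin3B myoblast peaks the -0.276 became 10.0 with the wider peaks and 0.12 with the Sin3B lists cut. At Sin3B myotube peaks the -2.31 became 5.44, and at no other list the 4.52 became -2.98, both with the Sin3B lists cut.

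Differences below are chromosome 15 minus other chromosomes in percentage points, by Fisher's exact test with adjusted p, unless another contrast is named. With an overlap of 50% of the shorter peak, Sin3B myoblast peaks at Sin3A myotube peaks came to 5.96 (exact p = 0.0999) and at Sin3A myoblast peaks to 3.75 (p = 0.168), both no longer passing. Sin3B peaks at same-stage Sin3A peaks, myotubes minus myoblasts on chromosome 15, then passed at 11.5 (exact p = 0.00656). With peaks within 1 kb, Sin3B myoblast peaks at Sin3B myotube peaks (9.18, exact p = 0.0447) and at no other list (-8.72, p = 0.0447) passed. With the wider peaks of each list, Sin3B myotube peaks at Sin3A myotube peaks (7.29, exact p = 0.0662) and at Sin3A myoblast peaks (3.35, p = 0.236), and Sin3B myoblast peaks at Sin3A myotube peaks (3.38, p = 0.404), no longer passed, while Sin3B myoblast peaks at no other list passed (-15.7, p = 0.0189). The Sin3A myotube list with both Sin3B lists then held 9 of 191 regions (4.71%), against 7.30%.

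With the Sin3B lists cut to their widest peaks, Sin3B myotube peaks at Sin3A myotube (12.1, exact p = 0.167), Sin3A myoblast (12.5, p = 0.0965) and Sin3B myoblast peaks (14.4, p = 0.109), and Sin3B myoblast peaks at Sin3A myotube (3.69, p = 0.597) and Sin3A myoblast peaks (3.27, p = 0.506), no longer passed. These lists hold fewer peaks. Within chromosome 15, myotubes minus myoblasts for Sin3B at Sin3A then passed at 28.2 (exact p = 0.00109), and myotube peaks listed in myoblasts, Sin3A minus Sin3B, did not (-17.4, p = 0.0566). Sin3A peaks at same-stage Sin3B peaks came to 33.5 (exact p = 6.29e-05), against 55.2, and myoblast peaks listed in myotubes to -24.5 (p = 0.00364), against -45.9.

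At 500 bp from a start, fewer blocks could be named, with 258 peaks, of which 54.7% lay at a start, and 85 of 450 protein-coding genes had a peak. Members with a peak were then 7 of 14 for cell cycle, 3 of 13 for muscle, 8 of 14 for chromatin, 6 of 7 for translation, 4 of 14 for mitochondria and lipid, 8 of 11 for transcription and RNA, 2 of 13 for DNA-binding factors and 0 of 11 for other lineages. At 2 kb the share at a start was 83.7%. Muscle genes with a peak numbered 10 at 2 kb, against 5. Without the condition on protein-coding starts, or with the unnamed blocks placed by their neighbours, all counts stayed within 1.5 times. Depth is unknown, so what it limits cannot be stated.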

Other observations

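Where chromosome 15 had peaks far from starts, some lay close together. Within chr15:85487524-85510583 in the files' build, 7 regions lay between genes, with no start within 1 kb and in no protein-coding gene of the table at the shift used. Sin3A myoblast peaks alone made up 2 of them, Sin3B myotube peaks alone 2, Sin3B myoblast peaks alone 2, and both Sin3B lists 1.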
